A study of Mus musculus with 40 samples.

Results

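Among 8 RNA-seq libraries of early T-cell precursors (ETP) from tamoxifen-treated mice, Cd8a, which encodes the alpha chain of the CD8 co-receptor, varied over a wide range. The genes whose levels followed Cd8a across these libraries are described here, and the 8 libraries are those of the tamoxifen treatment and the ETP stage among 40 in the study. Genes were chosen by a model fitted across 12923 genes, with the log2 level of Cd8a as a continuous term (levels are in CPM, counts scaled to the library's TMM-normalised total) and genotype as a covariate. Since the measured Cd8a levels define this model, its results are a description of these libraries, and tests are given for 20 libraries that the model did not use.

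The DeltaTamCre ETP group held 4 libraries from Rosa26CreERT2 Zmiz1f/f mice, in which tamoxifen activates a Cre recombinase that deletes the floxed Zmiz1 gene, whose product is a cofactor of Notch1. The TamCre ETP group held 4 libraries from Rosa26CreERT2 mice, so the controls carried the same Cre and received tamoxifen as well. All were C57BL/6 mice given 0.2 mg/g tamoxifen into the peritoneum, 4 mice per group, with cells sorted 43 to 44 hours later, and the age of the mice is not given in the sources used here. The Rosa26 locus drives the Cre in most cell types, so other cells of these mice can carry the deletion too. ETP were sorted as live CD44+ cKit+ CD25- lineage-negative cells, and the antibodies of the lineage mix, which decide whether CD4+ or CD8+ cells were gated out, are not given in the sources used here. Libraries were made from 1 ng of total RNA with a stranded pico-input total RNA kit and 15 PCR cycles.

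In the thymus, Kit-positive precursors pass through double-negative stages, which lack CD4 and CD8, and become double-positive cells, which carry both co-receptors. Rag1 and Rag2 form the recombinase that cuts the T-cell receptor genes, first in double-negative cells for the beta, gamma and delta chains and again in double-positive cells for the alpha chain. The CD8 of double-positive cells pairs the products of Cd8a and Cd8b1, whereas some dendritic cells and innate-like lymphocytes carry CD8 alpha chains without the beta chain.

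Total counts ran from 17418637 to 24633744 in DeltaTamCre ETP and from 21326502 to 30975325 in TamCre ETP. Zmiz1, the deleted gene, had 173, 121, 307 and 202 CPM in DeltaTamCre ETP libraries 1 to 4, against 424, 419, 461 and 458 CPM in TamCre ETP libraries 1 to 4, with no overlap between the groups. The sorted marker Kit stood at 173 to 413 CPM in DeltaTamCre ETP and 241 to 362 CPM in TamCre ETP. Il2ra, which encodes CD25, an antigen the gate excluded, was nonetheless abundant in mRNA, at 857 to 2448 CPM in DeltaTamCre ETP and 1928 to 2123 CPM in TamCre ETP. The library of DeltaTamCre ETP 1 stood apart, with a mean Spearman correlation of 0.903 across genes with the other libraries, whereas the other 7 had means of 0.942 to 0.964. Among 9757 genes compared, 231 were more than 2-fold higher and 170 more than 2-fold lower in DeltaTamCre ETP 1 than in any other library.

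Cd8a had 18.1, 16.9, 131 and 341 CPM in DeltaTamCre ETP libraries 1 to 4, against 135, 10.2, 178.5 and 111 CPM in TamCre ETP libraries 1 to 4. The levels form 2 separate ranges and not an even gradient. The low range holds 3 libraries (DeltaTamCre ETP 1 and 2 and TamCre ETP 2) at 10.2 to 18.1 CPM, and the high range holds the other 5 at 111 to 341 CPM. Each genotype contributed to both ranges, and the highest level was 33.5-fold the lowest. Averages of Cd8a were 127 ± 153 CPM in DeltaTamCre ETP and 109 ± 71.4 CPM in TamCre ETP (SD, n = 4 each), with a log2 difference of 0.23 (SE 1.21, edgeR quasi-likelihood adjusted p = 0.990). In such bulk samples, fewer cells of a type and less RNA per cell cannot be told apart.

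Rag1 and Cd8b1 followed Cd8a with the lowest adjusted p of all genes tested. Rag1 had been named as a marker with Cd8a, from earlier results of these data, so its rank is no independent evidence. Rag1 had 96.2, 110.4, 1066 and 2626 CPM in DeltaTamCre ETP libraries 1 to 4, against 1012, 72.2, 1282 and 828 CPM in TamCre ETP libraries 1 to 4. Its ratio to Cd8a stayed between 5.32 and 8.12 in the 8 libraries, a spread of 1.53-fold, while Rag1 itself spanned 36.4-fold. Cd8b1, the gene of the CD8 beta chain, had 18.8, 9.41, 163 and 359 CPM in DeltaTamCre ETP libraries 1 to 4, against 130, 5.21, 167 and 118 CPM in TamCre ETP libraries 1 to 4. The ratio of Cd8b1 to Cd8a lay between 0.512 and 1.24. It was lowest in TamCre ETP 2 (0.512) and DeltaTamCre ETP 2 (0.558), both low in Cd8a, and 0.933 or more in the other libraries. The mRNA of the beta chain thus broadly moved with that of the alpha chain, though not in strict proportion. Cd8b1 lies at chr6:71322788-71337494 and Cd8a at chr6:71373427-71379173 (both plus strand, mouse build GRCm38, GENCODE M21), a pair of neighbours in the genome, whereas Rag1 lies at chr2:101638282-101649501 on the minus strand.

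The results are given as slopes, the log2 change of a gene per doubling of Cd8a at equal genotype, so a slope of 1 means that a gene doubled whenever Cd8a doubled. Rag1 had a slope of 1.06 (SE 0.04) and Cd8b1 a slope of 1.18 (SE 0.07). Rag2, the neighbour of Rag1 and its partner in the recombinase, had 7.24, 36.2, 41.0 and 62.1 CPM in DeltaTamCre ETP libraries 1 to 4, against 44.8, 17.2, 43.6 and 47.9 CPM in TamCre ETP libraries 1 to 4. Its slope was 0.35 (SE 0.12, edgeR adjusted p = 0.439), whereas it passed by DESeq2 (adjusted p = 0.0250) and without DeltaTamCre ETP 1 (slope 0.26, edgeR adjusted p = 0.0315). The ratio of Rag1 to Rag2 was 3.05 to 13.3 in the 3 libraries low in Cd8a and 17.3 to 42.3 in the 5 high ones. The recombinase genes thus did not keep a fixed proportion, since Rag1 varied far more than Rag2.

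**Figure D1:**
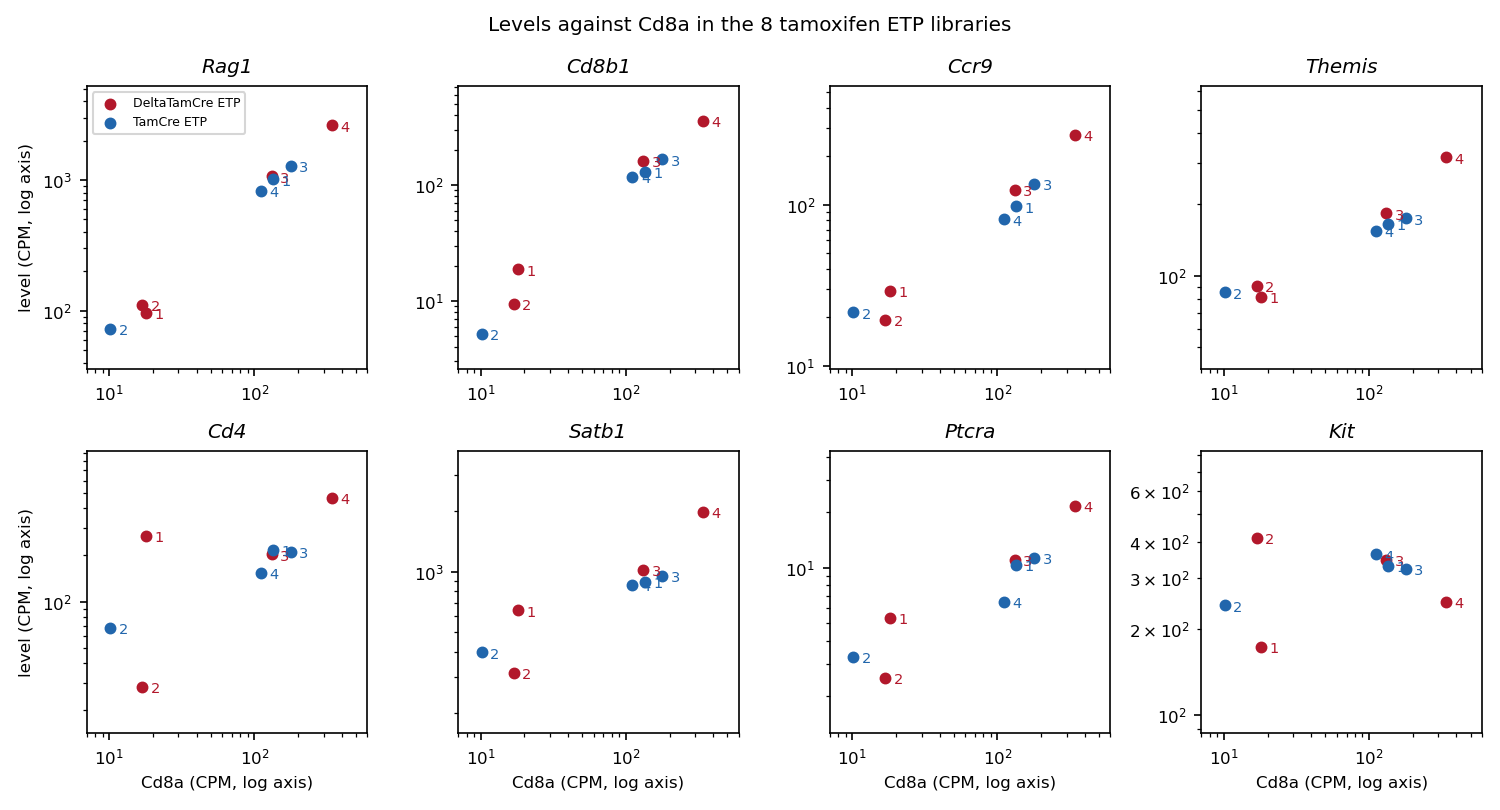
Levels of 8 genes (CPM, log axis) against Cd8a (CPM, log axis) in the 4 DeltaTamCre ETP (red) and 4 TamCre ETP (blue) libraries, each point 1 library with its replicate number. Rag1 and Cd8b1 lie close to a line across both ranges of Cd8a, Cd4 leaves it in DeltaTamCre ETP 1, and Kit shows no ordering along Cd8a.

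The 250 bases before the start of Cd8a, and of the 3 called genes of lowest adjusted p that have an entry, are shown for the letters a reader may want to compare between genes that moved together (RefSeq, GRCm38.p6, 5′ to 3′ on the strand of the gene). Capitals mark the motifs searched on both strands: the E-boxes CAGCTG and CAGGTG, the Runx core TGTGGT and the Tcf/Lef core CTTTGA. None of these motifs overlap in the sequences shown. Ccr9 encodes the receptor for the thymic chemokine CCL25, and F13a1 the A subunit of coagulation factor XIII, for which 2 starts are listed.
Cd8a, chr6:71373177-71373426, plus strand: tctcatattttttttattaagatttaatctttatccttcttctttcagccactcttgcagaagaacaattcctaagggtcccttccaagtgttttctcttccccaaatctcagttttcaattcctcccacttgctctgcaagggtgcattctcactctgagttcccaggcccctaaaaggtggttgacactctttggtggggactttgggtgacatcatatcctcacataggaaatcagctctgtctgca
Rag1, chr2:101649533-101649782, minus strand: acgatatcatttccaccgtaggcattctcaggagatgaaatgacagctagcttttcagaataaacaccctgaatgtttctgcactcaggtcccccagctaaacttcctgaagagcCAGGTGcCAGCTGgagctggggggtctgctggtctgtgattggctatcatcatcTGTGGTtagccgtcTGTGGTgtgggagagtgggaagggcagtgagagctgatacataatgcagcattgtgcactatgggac
Ccr9, chr9:123766961-123767210, plus strand: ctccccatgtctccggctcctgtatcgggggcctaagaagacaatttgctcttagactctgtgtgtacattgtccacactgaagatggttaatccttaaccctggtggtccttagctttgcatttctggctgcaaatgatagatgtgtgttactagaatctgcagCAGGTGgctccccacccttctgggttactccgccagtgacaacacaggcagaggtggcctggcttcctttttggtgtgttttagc
F13a1, chr13:37050245-37050494, minus strand: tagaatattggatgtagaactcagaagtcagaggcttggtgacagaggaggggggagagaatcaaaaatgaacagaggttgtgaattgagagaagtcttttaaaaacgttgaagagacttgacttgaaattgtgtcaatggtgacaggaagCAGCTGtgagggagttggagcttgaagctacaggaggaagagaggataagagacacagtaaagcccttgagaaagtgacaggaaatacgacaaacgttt
F13a1, chr13:37049214-37049463, minus strand: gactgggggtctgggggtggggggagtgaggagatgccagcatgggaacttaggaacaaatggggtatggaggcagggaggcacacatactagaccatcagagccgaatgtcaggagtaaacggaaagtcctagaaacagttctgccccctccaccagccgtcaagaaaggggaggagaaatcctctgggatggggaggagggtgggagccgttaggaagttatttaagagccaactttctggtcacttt
The Rag1 window holds 1 CAGGTG, 1 CAGCTG and 2 TGTGGT, the Ccr9 window 1 CAGGTG and the upstream F13a1 window 1 CAGCTG, and none of the 4 motifs is in the Cd8a window. Of the 46 genes described next, 36 had an entry, with 65 windows in all. CAGCTG was in 24.6% of these windows, in 12.2% of the 11587 windows of all genes tested and in 13.0% of all 32851 windows. Counted by gene, 11 of 36 (30.6%) held CAGCTG in a window, beside 14.5% of 9106 genes tested. CAGGTG was in 16.9% of the 65 windows, 15.8% of the windows of genes tested and 17.2% of all windows. In the same order, TGTGGT was in 10.8%, 11.3% and 14%, and CTTTGA in 10.8%, 10.8% and 13.8%. These are matches of letters, not binding sites.

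Besides Cd8a, 46 of 12923 genes (0.356%) had a slope past an adjusted p of 0.05 (edgeR quasi-likelihood test), all of them higher with Cd8a and 0 lower. At an unadjusted p of 0.05, 609 genes had positive and 526 negative slopes, and DESeq2 called 248 genes (1.92%), 149 higher and 99 lower. Since Cd8a was picked with these libraries known, this share describes the choice and nothing is read from it. The 46 slopes ran from 0.21 to 1.40 with a median of 0.49, beside a median of -0.005 over all genes tested. Every one of the 46 was highest in DeltaTamCre ETP 4, and 45 of the 46 were lower in each of the 3 libraries low in Cd8a than in any of the 5 high ones. Since the 46 were selected by their slope on Cd8a in these libraries, both patterns largely follow from the selection. The share of all genes with such a separation was not counted, and nothing is read from it. Trp53bp2 was the last gene inside the threshold (adjusted p = 0.0490) and Med13 the first outside (0.0530).

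The 46 genes are given here by what their products are known for, an order made after the calls and with no test. Themis, needed for T-cell receptor signalling during thymocyte selection, had 81.4, 90.5, 183 and 315 CPM in DeltaTamCre ETP libraries 1 to 4, against 165, 85.1, 174.5 and 155 CPM in TamCre ETP libraries 1 to 4 (slope 0.35, SE 0.04). Its 3 low values stood in the libraries low in Cd8a, but the range was narrower than that of Rag1. Ccr9 had 29.2, 19.2, 124 and 272 CPM in DeltaTamCre ETP libraries 1 to 4, against 97.5, 21.4, 134 and 80.9 CPM in TamCre ETP libraries 1 to 4 (slope 0.72, SE 0.05). Satb1, a chromatin organizer of thymocytes, had 642, 316, 1018 and 1985 CPM in DeltaTamCre ETP, against 890, 398, 957 and 857 CPM in TamCre ETP (slope 0.40, SE 0.06). Ptcra, the alpha chain of the pre-T-cell receptor, stood at 5.33, 2.51, 11.1 and 21.6 CPM in DeltaTamCre ETP and 10.3, 3.26, 11.3 and 6.51 CPM in TamCre ETP (slope 0.50, SE 0.09). Lig4, the ligase that seals the breaks made by the recombinase, had a slope of 0.31 (SE 0.06) and levels of 14.5 to 67.9 CPM in DeltaTamCre ETP and 28.0 to 52.1 CPM in TamCre ETP. Ptcra and Lig4 each lost their call when any of 6 of the 8 libraries was left out, whereas Rag1, Cd8b1, Ccr9, F13a1, Bmf and Tdrd5 held theirs without each library in turn.

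Some of the 46 are known as regulators of transcription or of cell death. Ets2, a transcription factor of the Ets family, had 46.6, 20.1, 145 and 310 CPM in DeltaTamCre ETP libraries 1 to 4, against 131, 34.8, 167.5 and 95.5 CPM in TamCre ETP libraries 1 to 4 (slope 0.64, SE 0.08). The repressor Bcl6 had 17.0, 10.5, 34.1 and 57.1 CPM in DeltaTamCre ETP and 26.4, 9.58, 35.9 and 24.8 CPM in TamCre ETP (slope 0.46, SE 0.05). Hdac7, a class IIa histone deacetylase, had a shallow slope of 0.22 (SE 0.04). Bmf, a BH3-only protein that promotes apoptosis, had 4.52, 4.19, 29.6 and 47.4 CPM in DeltaTamCre ETP, against 25.2, 3.33, 25.7 and 13.6 CPM in TamCre ETP (slope 0.78, SE 0.07). Trp53inp1, a p53-induced gene, had 243, 253, 364 and 501 CPM in DeltaTamCre ETP, against 330, 194, 344 and 322 CPM in TamCre ETP, with a slope of 0.22 (SE 0.03). In each of these genes, which were selected for following Cd8a, the 3 lowest libraries were those low in Cd8a.

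Others encode surface receptors, channels, transporters or enzymes. Plxnd1, a plexin that guides thymocyte movement in response to semaphorin 3E, had 73.1, 58.7, 135 and 361 CPM in DeltaTamCre ETP libraries 1 to 4, against 132, 46.9, 142 and 99.6 CPM in TamCre ETP libraries 1 to 4 (slope 0.47, SE 0.05). F13a1 had 5.97, 3.73, 26.6 and 64.0 CPM in DeltaTamCre ETP, against 27.6, 3.80, 31.1 and 22.3 CPM in TamCre ETP (slope 0.81, SE 0.06). Slc7a11, the cystine and glutamate exchanger, had a slope of 0.63 (SE 0.08), and Ldhb, a subunit of lactate dehydrogenase, a slope of 0.48 (SE 0.06). The steepest slope belonged to Tdrd5, a Tudor-domain gene known from the germ line, with 0.579, 1.43, 17.9 and 46.3 CPM in DeltaTamCre ETP, against 13.4, 0.168, 13.1 and 16.8 CPM in TamCre ETP (slope 1.40, SE 0.14). Other steep slopes were those of BB031773 (1.30), Slc16a5, of the monocarboxylate transporter family (1.01), Xrra1 (0.94), Syt13, a synaptotagmin (0.93), the calcium channel subunit Cacna1e (0.88) and the potassium channel Kcnh3 (0.85). Each of these was below 5 CPM in every library low in Cd8a, so its slope rests on low counts there. H2-Q2 (slope 0.66) shares reads with near-identical class I genes and is uncertain. Ranked by likeness to Cd8a (Pearson correlation of genotype-centred log2 CPM over the 8 libraries), the first 8 among those averaging 5 CPM or more were Rag1, Trp53inp1, F13a1, Cd8b1, Snrnp200, Bmf, Vps37a and Ccr9.

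**Figure D2:**
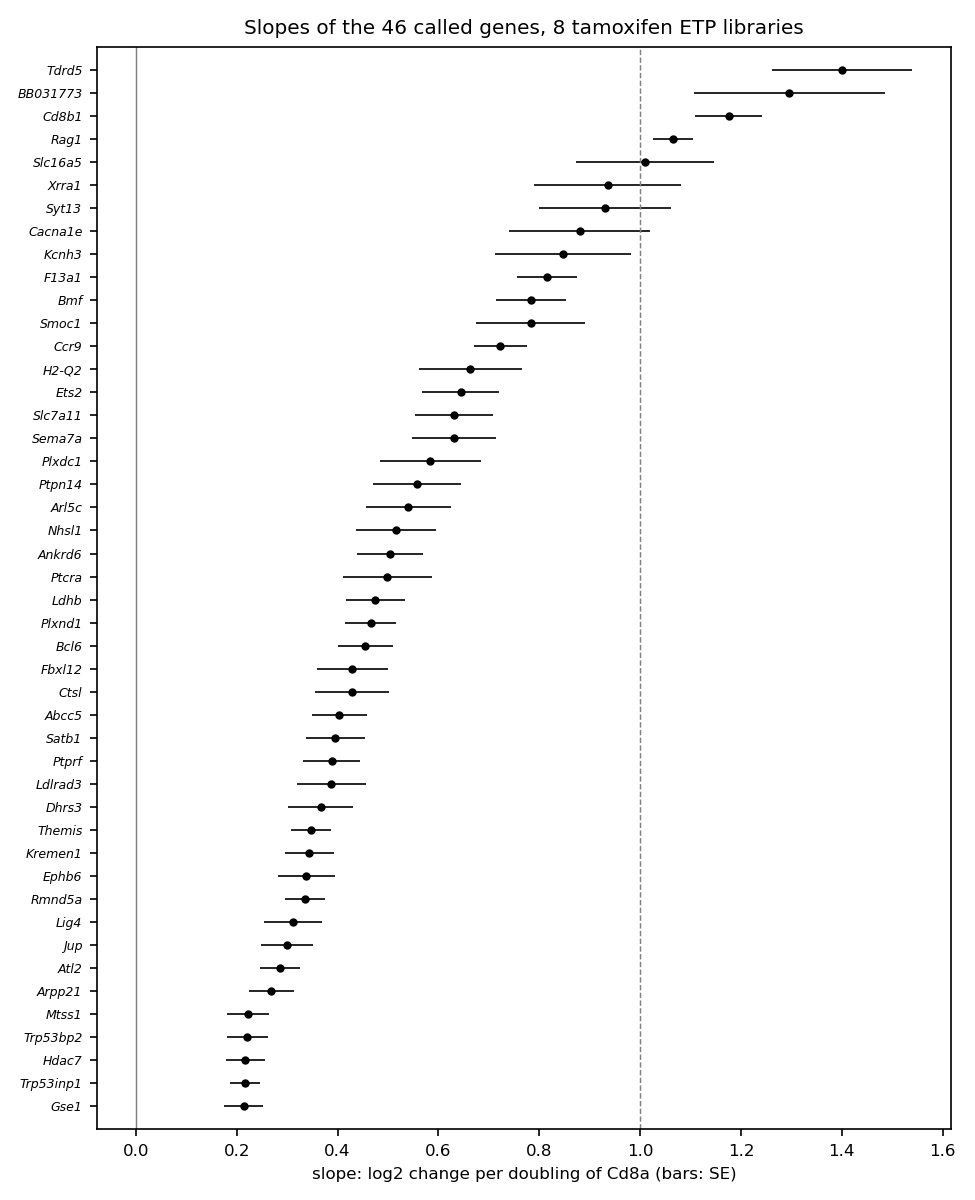
Slope (log2 change per doubling of Cd8a at equal genotype) of each of the 46 genes in the 8 tamoxifen ETP libraries, with bars of 1 standard error. The dashed line marks a slope of 1, in proportion to Cd8a, and the slopes run from 0.21 (Gse1) to 1.40 (Tdrd5).

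Among 19 gene lists, markers of double-positive thymocytes had the most members that followed Cd8a and the highest median slope. Of 13 such markers besides Cd8a, 8 were called higher (Arpp21, Ccr9, Cd8b1, Ets2, Plxnd1, Rag1, Satb1 and Themis), 0 lower, and each of the 13 slopes was positive, with a median of 0.37 beside -0.005 over all genes. The list was chosen with Cd8a in it and with these libraries known, so its count is no independent evidence. The summed level of the list was 1588, 1082, 3784 and 7933 CPM in DeltaTamCre ETP libraries 1 to 4, against 3445, 1140, 4035 and 3117 CPM in TamCre ETP libraries 1 to 4, in the same 2 ranges as Cd8a. In the other lists, 1 of 14 T-cell receptor and DN3-stage genes was called (Ptcra), and 2 of 10 recombination genes (Lig4 and Rag1, of which Rag1 is also in the first list). By edgeR, 0 members passed in the lists of T-lineage transcription factors (12 tested), mature T cells (12), stem and progenitor genes (16), DNA replication (20) or mitosis (16).

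Cd4, also a marker of double-positive cells, followed Cd8a less closely, above all in DeltaTamCre ETP 1. Cd4 had 266, 28.3, 201 and 468 CPM in DeltaTamCre ETP libraries 1 to 4, against 215, 67.8, 208.5 and 153 CPM in TamCre ETP libraries 1 to 4 (slope 0.37, SE 0.18, adjusted p = 0.639). DeltaTamCre ETP 1 had much Cd4 and little Cd8a, a ratio of 14.7, and TamCre ETP 2 had a ratio of 6.65, whereas the other 6 libraries had ratios of 1.17 to 1.68. Without DeltaTamCre ETP 1, Cd4 had a slope of 0.62 with an adjusted p of 0.196, and 9 of the 13 double-positive markers were called. Mature T-cell markers were high in that same library, at a summed 1892 CPM, against 806 to 899 CPM in the other 3 DeltaTamCre ETP and 731 to 996 CPM in the 4 TamCre ETP libraries, and their part in its Cd4 level was not tested.

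**Figure D3:**
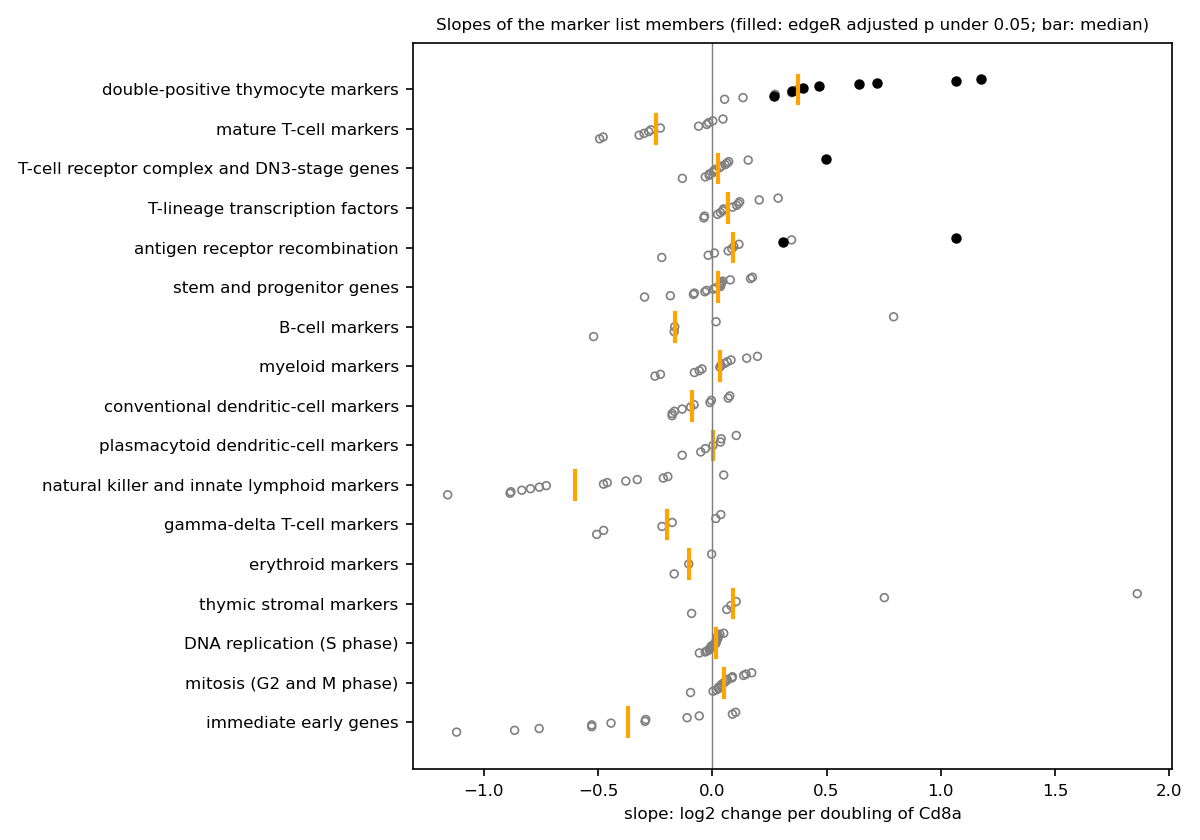
Slopes of the tested members of 17 marker lists in the 8 tamoxifen ETP libraries, each point 1 gene, filled where the edgeR adjusted p was under 0.05, with an orange bar at the list's median. The double-positive list (median 0.37) has 8 filled points, and the natural killer and innate lymphoid list (median -0.60) has the lowest median, with 0 filled points.

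Of the markers of other cells that could carry CD8 or enter the gate, none was called with Cd8a by edgeR. Among dendritic-cell markers, 0 of 10 conventional and 0 of 7 plasmacytoid genes were called (medians -0.09 and 0.003). Clec9a was at 0 to 0.865 CPM in DeltaTamCre ETP and 0 to 0.550 CPM in TamCre ETP, and Xcr1, a receptor of CD8 alpha-positive dendritic cells, was at 0.972 to 6.95 CPM in DeltaTamCre ETP and 1.43 to 4.04 CPM in TamCre ETP. Some other conventional markers had more RNA, with Itgax at 13.7 to 31.3 CPM in DeltaTamCre ETP and 7.74 to 11.1 CPM in TamCre ETP. Cd74 stood at 33.6 to 59.4 CPM in DeltaTamCre ETP and 22.6 to 64.6 CPM in TamCre ETP. The B-cell list had 0 of 5 called, with a summed level of 15.9 to 18.2 CPM in DeltaTamCre ETP and 13.4 to 20.7 CPM in TamCre ETP. Myeloid markers (0 of 12), erythroid markers (0 of 3) and thymic stromal markers (0 of 6) were not called by edgeR either. The summed erythroid level was 4.89 to 8.34 CPM in DeltaTamCre ETP and 11.8 to 16.4 CPM in TamCre ETP, with Hba-a1 at 0 in every library. By DESeq2 the collagen gene Col1a1 was called higher with Cd8a (adjusted p = 0.000374). It had 0, 0, 0.674 and 1.02 CPM in DeltaTamCre ETP libraries 1 to 4, against 6.56, 0, 0.738 and 1.56 CPM in TamCre ETP libraries 1 to 4, so it was at 0 in the 3 libraries low in Cd8a.

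Natural killer and innate lymphoid markers were at their highest in 2 of the 3 libraries low in Cd8a. Their summed level was 1368, 143, 175 and 115 CPM in DeltaTamCre ETP libraries 1 to 4, against 293, 611, 182 and 163 CPM in TamCre ETP libraries 1 to 4. DeltaTamCre ETP 2, also low in Cd8a, did not share this. Il2rb, the shared beta chain of the interleukin 2 and 15 receptors, had 427.5, 21.1, 21.2 and 11.6 CPM in DeltaTamCre ETP, against 68.1, 202, 19.3 and 29.1 CPM in TamCre ETP. Zbtb16, the PLZF transcription factor of innate-like lymphocytes, had 98.0, 8.39, 3.37 and 5.38 CPM in DeltaTamCre ETP, against 13.99, 48.0, 9.68 and 16.8 CPM in TamCre ETP. Of 14 such markers, 13 had negative slopes, but 0 passed by edgeR and 4 by DESeq2. Over all genes tested, 6180 of 12923 had positive slopes. Klrb1c, the NK1.1 receptor gene, had 102, 1.79, 2.64 and 0.451 CPM in DeltaTamCre ETP, against 8.38, 27.3, 3.41 and 4.14 CPM in TamCre ETP (slope -1.16, SE 0.43, DESeq2 adjusted p = 0.0161). Klrk1, the NKG2D receptor gene, had 75.7, 1.38, 0.842 and 2.71 CPM in DeltaTamCre ETP, against 5.93, 25.5, 3.46 and 2.58 CPM in TamCre ETP. Another receptor gene of natural killer cells, Ncr1, was at 0 to 1.39 CPM in DeltaTamCre ETP and 0.296 to 6.52 CPM in TamCre ETP. The size of the negative slopes depended on DeltaTamCre ETP 1. Without that library the list's median slope was -0.26, against -0.60 with all 8 libraries. Zbtb16 was then called lower with Cd8a (slope -0.36, edgeR adjusted p = 0.0403), the 1 marker of the list to pass.

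**Figure D4:**
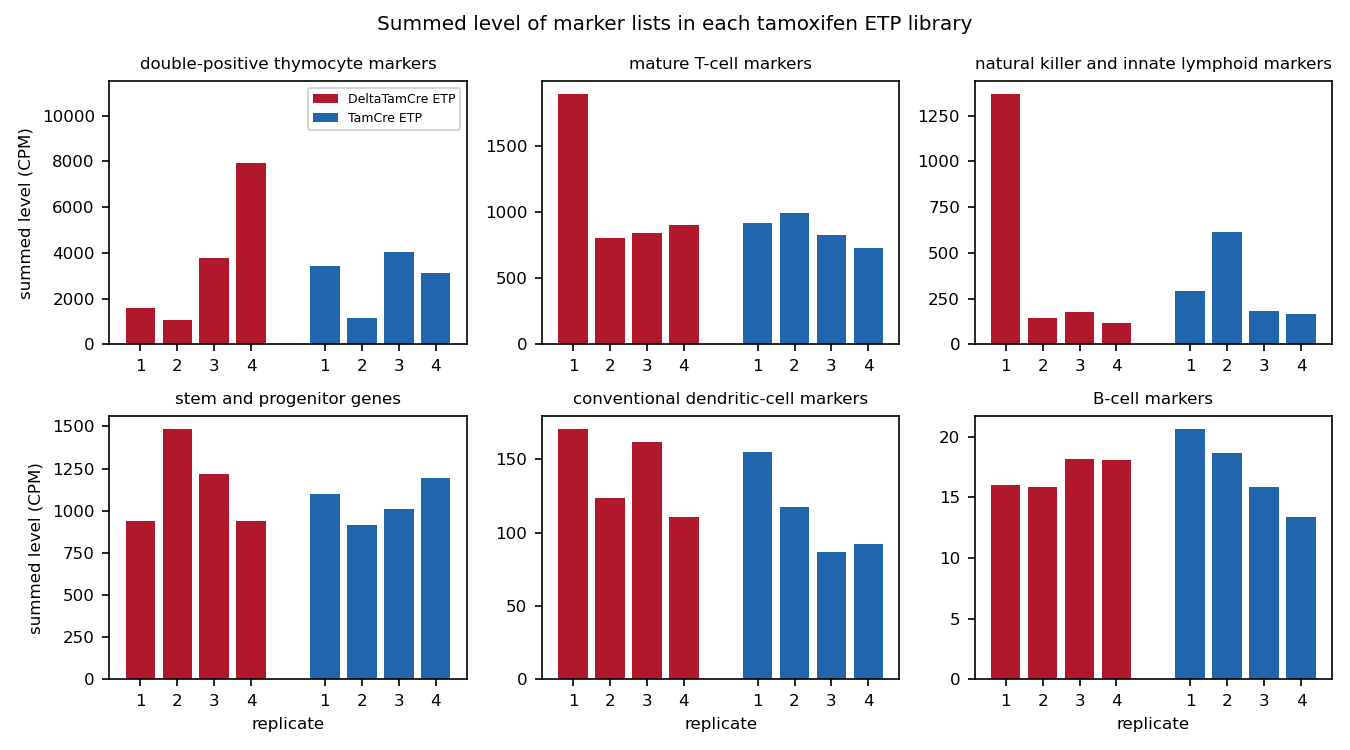
Summed level (CPM) of 6 marker lists in each of the 4 DeltaTamCre ETP (red) and 4 TamCre ETP (blue) libraries, by replicate number. Double-positive markers split into the ranges of Cd8a, whereas mature T-cell and natural killer markers peak in DeltaTamCre ETP 1 at 1892 and 1368 CPM.

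Immediate early genes, which stress and tissue handling induce, had a negative median slope, although none passed the test by edgeR. Jun had 305, 263, 99.8 and 61.8 CPM in DeltaTamCre ETP libraries 1 to 4, against 113, 289, 26.5 and 104 CPM in TamCre ETP libraries 1 to 4 (slope -0.53, SE 0.10, adjusted p = 0.141). The 3 libraries low in Cd8a had 263 to 305 CPM of Jun and the other 5 had 26.5 to 113 CPM, so the ranges did not overlap. The list's median slope was -0.37 over 12 genes, with 0 called by edgeR and 4 by DESeq2. The ribosomal precursor Rn45s, a measure of how much ribosomal RNA a library kept, took 27.2%, 31.5%, 23.4% and 16.8% of counts in DeltaTamCre ETP, against 25.02%, 27.3%, 21.9% and 20.5% in TamCre ETP, highest in the libraries low in Cd8a. With the Rn45s share as a further term, chosen after seeing the data, 2 of the 46 genes were still called, Rag1 (slope 1.07) and Cd8b1 (slope 1.17).

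Of 16 stem and progenitor genes 10 had positive slopes, with a median of 0.03, and 0 passed by edgeR. Kit, the sorted receptor, had 173, 413, 346 and 248 CPM in DeltaTamCre ETP libraries 1 to 4, against 331, 241, 322 and 362 CPM in TamCre ETP libraries 1 to 4, and its slope of 0.04 (SE 0.07) was within its error. Cd34 (0.02, SE 0.08), Flt3, an early progenitor receptor (0.01, SE 0.08), Notch1 (0.06, SE 0.05) and Il2ra (0.03, SE 0.08) had slopes within 2 standard errors of 0. Cd44, an antigen of the gate, had 309, 175, 173 and 117 CPM in DeltaTamCre ETP, against 161, 194, 121 and 139 CPM in TamCre ETP, with a slope of -0.18 (SE 0.05, edgeR adjusted p = 0.274). Ly6a, the stem-cell antigen Sca-1, had a slope of -0.30 (SE 0.08), which passed by DESeq2 (adjusted p = 0.0136) and not by edgeR (adjusted p = 0.257). Dntt, the enzyme that adds bases at receptor junctions, had 314, 1085, 1232 and 1096 CPM in DeltaTamCre ETP, against 938, 996, 1233 and 1148 CPM in TamCre ETP, so it was low in DeltaTamCre ETP 1 alone. Tcf7, the T-lineage factor TCF1, had 536, 638, 994 and 1393 CPM in DeltaTamCre ETP and 1091, 887, 1281 and 1151 CPM in TamCre ETP, with a slope of 0.21 (SE 0.04, edgeR adjusted p = 0.0606). Tcf7 passed by DESeq2 (adjusted p = 0.000481) and, by edgeR, without DeltaTamCre ETP 1 (adjusted p = 0.0106).

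The count of 46 depended on single libraries. Without DeltaTamCre ETP 4, the library highest in Cd8a, 8 genes were called, 7 of them among the 46, and without DeltaTamCre ETP 3 there were 26. Without DeltaTamCre ETP 1, 128 genes were called (117 higher with Cd8a and 11 lower), and without DeltaTamCre ETP 2, 142 (68 higher and 74 lower), the 46 included both times. The single direction of the calls thus did not hold without DeltaTamCre ETP 1 or DeltaTamCre ETP 2. Leaving out DeltaTamCre ETP 4, TamCre ETP 1 or TamCre ETP 3 gave 1 lower gene each. The 4 DeltaTamCre ETP libraries alone gave 3 genes, each among the 46, and the 4 TamCre ETP libraries alone gave 43 (29 higher and 14 lower), of which 21 were among the 46.

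Genotype was compared at equal Cd8a, DeltaTamCre ETP minus TamCre ETP, and 0 of 12923 genes passed (0%, edgeR quasi-likelihood test), with 713 at an unadjusted p of 0.05 and 16 by DESeq2 (0.124%). Without the Cd8a term, 0 of 12924 passed, with 640 at an unadjusted p of 0.05 and 2 by DESeq2 (0.0155%). Zmiz1 had a log2 difference of -1.14 (SE 0.20) with the term and -1.13 (SE 0.23) without it (edgeR adjusted p = 0.848 and 0.907), with no overlap between the groups. Dtx1, a Notch target gene, had 109, 114, 142 and 136 CPM in DeltaTamCre ETP, against 83.7, 86.2, 74.1 and 60.3 CPM in TamCre ETP, a log2 difference of 0.72 (SE 0.15) with the term. Zmiz1 (adjusted p = 0.000412) and Dtx1 (adjusted p = 0.03285) passed by DESeq2 with the term. For Rag1 the difference had a standard error of 1.28 without the Cd8a term and 0.12 with it, and for Cd8b1 of 1.35 and 0.20. Since Rag1 and Cd8b1 are shown for following Cd8a, the smaller error with the term restates that and is no separate result.

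Whether the slopes differed between genotypes was tested with an interaction term, and 0 of 12923 genes passed (258 at an unadjusted p of 0.05, 0 by DESeq2). Rag1 had an interaction of 0.09 (SE 0.07) and Cd8b1 of -0.12 (SE 0.12), DeltaTamCre ETP minus TamCre ETP. Without DeltaTamCre ETP 1, 156 genes passed, among them Cd4 (0.53, SE 0.06, adjusted p = 0.000223), Satb1 (0.29, SE 0.04, adjusted p = 0.00072) and Ccr9 (0.27, SE 0.06, adjusted p = 0.0432), each steeper in DeltaTamCre ETP, where 3 libraries then carried the slope. Rag1 (0.05, SE 0.04) and Cd8b1 (-0.01, SE 0.09) did not pass in that fit.

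The same slope was tested in libraries that had no part in calling the 46 genes. The tamoxifen DN3 set (4 DeltaTamCre DN3 and 4 TamCre DN3 libraries, mice of the same genotypes and treatment) holds the stage at which the receptor beta chain is rearranged, and it was made with a poly(A) mRNA kit. Its gate is written in the labels as CD44+ CD25-, but Cd44 was at 4.03 to 5.45 CPM in DeltaTamCre DN3 and 3.31 to 5.39 CPM in TamCre DN3, and Il2ra at 2507 to 3383 CPM in DeltaTamCre DN3 and 2434 to 2618 CPM in TamCre DN3. Cd8a had 44.8, 9.09, 16.5 and 25.5 CPM in DeltaTamCre DN3 libraries 1 to 4, against 7.05, 26.7, 8.45 and 8.03 CPM in TamCre DN3 libraries 1 to 4. Of 13297 genes, 735 passed (5.53%), 359 higher with Cd8a (2.70%) and 376 lower (2.83%). Of the 46 genes, 3 were called higher (6.52% of the 46 and 0.836% of the 359), namely Cd8b1, Bcl6 and Nhsl1, and 0 lower.

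In the DN3 libraries Cd8b1 and Cd4 rose with Cd8a, whereas Rag1 had a slope near 0. Cd8b1 had 31.9, 9.85, 15.0 and 22.4 CPM in DeltaTamCre DN3 libraries 1 to 4, against 8.45, 22.4, 10.7 and 9.10 CPM in TamCre DN3 libraries 1 to 4 (slope 0.74, SE 0.05, adjusted p = 0.000115). Cd4 had 35.9, 5.67, 15.6 and 19 CPM in DeltaTamCre DN3, against 6.34, 17.0, 4.89 and 4.99 CPM in TamCre DN3 (slope 1.00, SE 0.10, adjusted p = 0.00345). Rag1, which DN3 cells use for the beta chain, had 618, 752, 634 and 563 CPM in DeltaTamCre DN3, against 523, 673, 705 and 625 CPM in TamCre DN3, with a slope of -0.03 (SE 0.07, adjusted p = 0.806). The ratio of Cd4 to Cd8a stayed at 0.579 to 0.945 over the 8 DN3 libraries, and that of Cd8b1 at 0.712 to 1.26. Of the 13 double-positive markers, 3 were called higher and 0 lower (Cd1d1, Cd4 and Cd8b1). The list was chosen with earlier results of these data known, so this count is no independent evidence. Without any single library Cd8b1 kept its call (largest adjusted p 0.0152), whereas Cd4, Bcl6 and Nhsl1 lost theirs in at least 1 such fit, and the 735 genes fell to 3 without DeltaTamCre DN3 2, 4 without TamCre DN3 2 and 14 without DeltaTamCre DN3 4.

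The other ETP of the study came from mice given pI-pC or antibody, 12 libraries in groups of 3. DeltaMxCre ETP came from MxCre Zmiz1f/f mice and MxCre ETP from MxCre mice, sorted 8 weeks after pI-pC, which induces MxCre. Anti-NRR ETP came from mice given an antibody that blocks Notch1 and Control IgG ETP from mice given the isotype control, both sorted at 24 hours, and these libraries were made with another low-input kit. Cd8a was low throughout, at 1.55 to 11.0 CPM (25 to 182 counts per library), so the axis itself carried counting error. With group as a covariate, 0 of 13407 genes passed (0%, 471 at an unadjusted p of 0.05, 11 by DESeq2, 0.082%), and 0 of the 46. Of the 46, 21 had positive slopes, with a median of -0.03 beside -0.001 over all genes. Rag1 stood at 106 to 789 CPM in these ETP with a slope of -0.29 (SE 0.25), and its ratio to Cd8a ranged from 12.9 to 361. Cd8b1 had levels of 0 to 18.4 CPM and a slope of -1.08 (SE 0.97), which ran from -1.71 to 0.12 leaving out 1 library and was positive without MxCre ETP 2.

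**Figure D5:**
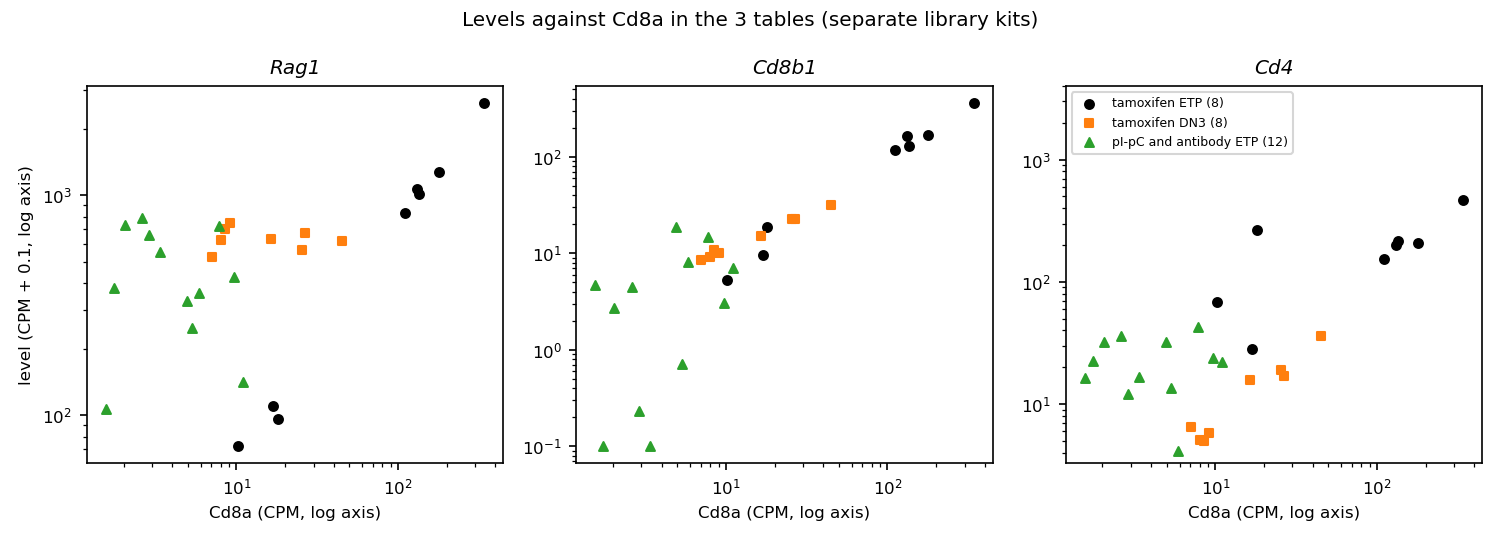
Levels of Rag1, Cd8b1 and Cd4 (CPM plus 0.1, log axis) against Cd8a (CPM, log axis) in the tamoxifen ETP (8 libraries, black), tamoxifen DN3 (8, orange) and pI-pC and antibody ETP (12, green), each point 1 library and each set made with its own kit. Rag1 lies along Cd8a in the tamoxifen ETP and between 523 and 752 CPM at every level of Cd8a in the DN3, and Cd8b1 lies along Cd8a in both.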

How the data were processed

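RNA was sequenced from sorted mouse thymocytes, and the authors deposited estimated counts in 3 tables, with genes by symbol in rows and libraries in columns. The build mm10, Cuffdiff 2.1.1 with Cufflinks, TopHat2 2.0.9 with Bowtie2 2.1.0.0 and FastQC 0.10.0 are named, per the submitters' processing notes, with no role or order. The annotation, the counting settings and the use of strand are not given in the sources used here, so overlapping and near-identical genes are uncertain. The tamoxifen tables hold 23107 genes, of which 0.762% of the ETP values and 1.19% of the DN3 values lay further than 0.01 from a whole number, and the expected counts were rounded before testing. Ribosomal-protein genes are not analysed here, and 1 double-positive marker is not reported here. Library totals were 48127195 to 91659590 counts in tamoxifen DN3 and 9456817 to 23962394 in pI-pC and antibody ETP, and no test joined libraries of different kits.

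Genes were kept with filterByExpr (10 counts at least, and 15 in total), TMM factors were computed and models were fitted in edgeR 4.0.16 (R 4.3.3, robust quasi-likelihood F test, Benjamini-Hochberg over all genes tested, called at an adjusted p under 0.05). The terms were group and the centred log2 CPM of Cd8a (prior count 2), and Cd8a was left out of all counts. The standard error is the slope divided by the square root of F. DESeq2 1.42.0 (Wald test) was an alternative, and the scripts recovered known slopes on simulated data. Per the labels each tamoxifen group came from 4 mice, but not which library came from which mouse, so p-values measure the spread between libraries. The 8 libraries, Cd8a as the axis, Rag1 as a marker beside it and the lists were chosen with earlier results of these data known.

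Genes were named by a rule: a set of 16 thymocyte genes, the 10 steepest called slopes averaging 5 CPM or more (lowest p where none was called), up to 3 genes of lowest p per list, the 8 most like Cd8a and those of lowest p in the genotype and interaction fits. The other called genes, and the other list members named, were chosen after their values were seen, and some genes the rule gives are not shown. Medians and counts of 19 lists are given without tests. Positions come from GENCODE M21 (46 of the 46 called genes matched) and promoters from RefSeq. Figures were drawn with matplotlib 3.10.9.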

Additional observations from a re-analysis of the deposited data

Results flagged for a closer look

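In the groups of 4 libraries, 180 tests by Dixon's criterion marked 17 values as far from the other 3 of their group, where chance alone marks about 5%, and the causes were not tested. Of these, 8 stood in DeltaTamCre ETP 1. Dntt was low there at 314 CPM, and Klf2 (169 CPM), Ms4a4b (125 CPM), Zbtb16 (98.0 CPM) and Maf (120.5 CPM) were high. The summed levels of mature T-cell (1892 CPM), natural killer and innate lymphoid (1368 CPM) and gamma-delta T-cell markers (219 CPM) were high in the same library.

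TamCre ETP 2, the library lowest in Cd8a, held 5 of the marked values. Rag2 (17.2 CPM), Trp53inp1 (194 CPM) and Vps37a (37.5 CPM) were below the other TamCre ETP libraries, and Cd163l1 (13.1 CPM) and Klrd1 (9.95 CPM) above them. The remaining 4 were the summed myeloid markers in DeltaTamCre ETP 2 (339 CPM), the summed stromal markers in DeltaTamCre ETP 3 (302 CPM), Col3a1 in TamCre ETP 1 (5.29 CPM) and the summed erythroid markers in TamCre ETP 4 (16.5 CPM), each above the rest of its group.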

How the results depend on the processing

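The 46 genes following Cd8a in tamoxifen ETP became 248 by DESeq2, 558 without the 2 libraries farthest from the median of Cd8a (TamCre ETP 2 and DeltaTamCre ETP 2), 3 in DeltaTamCre libraries only, 2 with the Rn45s share and 743 with the Malat1 share as a further term, and 8 to 142 leaving out 1 library. Other scaling, filters, axes (Cd8b1 or Rag1), a depth term and no genotype term gave 40 to 58, all higher with the axis gene. Cd8b1 and Rag1 were among the genes most like Cd8a (Pearson correlation 0.991 and 0.998), so these axes are no independent check. TamCre libraries only gave 43, of which 14 were lower and 21 were among the 46. Genotype calls with the Cd8a term went from 0 to 16 by DESeq2 and 0 to 3 leaving out 1 library, and without it to 2 by DESeq2 and 0 to 1. Interaction calls were 0 to 156 leaving out 1 library. In pI-pC and antibody ETP DESeq2 gave 11 calls and leaving out 1 library 0 to 1. In DN3, DESeq2 gave 1779 in place of 735, and leaving out 1 library 3 to 806. The cause of these shifts was not tested. Replicate numbers are shared by the groups, but same-numbered libraries deviated together with correlations of 0.175, 0.0521, 0.161 and 0.223, one of them close to 0, so the numbers were not taken to pair the libraries. With the replicate block, 6 genes followed Cd8a (Rag1 and Cd8b1 higher, 2 of the 46, and 4 others lower), 1 differed by genotype with the Cd8a term, 9 had an interaction, and 1032 followed Cd8a in DN3.

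Among the genes named by the rule and shown, slopes of 9 that edgeR did not call with all 8 libraries changed sign. With the replicate block these were Flt3 (-0.084), Zmiz1 (-0.038), Myc (0.075) and Malat1 (-0.062), without the genotype term Flt3 (-0.021) and Cd34 (-0.021), in TamCre libraries only Il2ra (-0.0083) and Dtx1 (-0.056), in DeltaTamCre libraries only Kit (-0.028), Flt3 (-0.082) and Cd34 (-0.088), with a depth term Flt3 (-0.0075), without the 2 farthest libraries Flt3 (-0.11), Myc (0.055) and Malat1 (-0.090), with the Rn45s share Myc (0.076) and Rn45s itself (0.00073), and with the Malat1 share Flt3 (-0.026), Myc (0.046) and Malat1 itself (-0.023). Leaving out 1 library gave slopes of -0.043 to 0.11 for Il2ra, -0.030 to 0.14 for Kit, -0.090 to 0.12 for Cd34, -0.041 to 0.016 for Myc and -0.10 to 0.063 for Flt3. Some list members outside those named by the rule also changed sign without DeltaTamCre ETP 1. Xcr1 went from -0.010 with all 8 libraries to 0.12 and Cd74 from -0.004 to 0.049. The median slope of the mature T-cell list went from -0.25 to 0.098.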
